A study of Mus musculus with 37 samples.

Results

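The genes described here encode the nuclear subunits of the respiratory chain complexes I, III and IV and of ATP synthase (complex V), the machinery of oxidative phosphorylation (OXPHOS). They were chosen by symbol: protein-coding mouse genes whose names start with Ndufa, Ndufb, Ndufc, Ndufs or Ndufv (complex I), Uqcr (complex III), Cox4 to Cox8 (complex IV) or Atp5 (complex V), leaving out pseudogene symbols and the Ndufaf assembly factors. The rule found 82 of the 53700 genes in the count files, with 38 genes of complex I, 8 of complex III, 18 of complex IV and 18 of complex V. Subunits with newer or unrelated symbols, such as Cyc1 of complex III, are outside the rule.

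RNA was sequenced from uterine natural killer (uNK) cells, which are the most abundant lymphocytes of the early pregnant uterus. Live NKp46+ cells of C57BL6 mice, taken at gestation day 9.5 to 10.5, were sorted and split by NKG2A and Ly49C/I, inhibitory receptors for self MHC class I through which natural killer cells are said to be educated. The wild-type (WT) mice gave 9 libraries of cells lacking both receptors (WT uneducated), 9 of NKG2A+ Ly49C/I- cells (WT NKG2A+) and 6 of Ly49C/I+ NKG2A- cells (WT Ly49C/I+), and NKG2A knockout (KO) mice on the same strain gave 8 uneducated and 5 Ly49C/I+ libraries. Cells carrying both receptors were not collected, all 5 groups came from pregnant mice with no further agent, and the sources used here give an age only for mice from which other organs were taken. They give neither the cells in which the deletion acts nor the number of animals behind a library. The p-values below therefore measure the spread between these libraries.

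Complexes I and III pump protons as electrons pass along the inner mitochondrial membrane, complex IV hands the electrons to oxygen, and complex V lets the protons flow back and makes ATP. Nearly all of the subunits are encoded in the nucleus and imported, while a small catalytic core is encoded by mitochondrial DNA, so that the complexes need transcripts from both genomes. In lymphocytes the machinery feeds proliferation and cytokine production, and several complex IV subunits exist as tissue-specific isoforms, among them a form of subunit VIa found mainly in heart and skeletal muscle.

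The libraries held between 13287163 and 18875033 reads on genes, and 13982 to 17859 genes had at least 1 read. Klrc1, which encodes NKG2A, lay between 494 and 760 counts per 1000000 reads on genes (CPM) in WT NKG2A+ libraries, between 1.24 and 13.8 CPM in WT uneducated libraries and between 0.766 and 3.80 CPM in all 13 KO libraries. Since the sort had removed NKG2A+ cells from the WT groups compared with the KO groups, the level of Klrc1 did not separate the genotypes there. Klra9 (Ly49I) lay between 464 and 1136 CPM in the Ly49C/I+ libraries and at or below 123 CPM in the other groups, whereas Klra3 (Ly49C) was lower in the WT Ly49C/I+ group, at 25.3 to 81.9 CPM, than in WT NKG2A+ libraries, at 117 to 223 CPM. The Klra genes are near-identical copies, so the split of reads between them is uncertain. Ncr1 (NKp46) was above 488 CPM in every library, and Cd4, Cd8a and Cd8b1 had medians of 0 in all 5 groups. The 7 T cell markers summed to between 85.8 and 239 CPM over the libraries all the same, with Cd3g between 31.5 and 181 CPM and Trac between 16.7 and 67.4 CPM. WT uneducated library 5 stood apart: genes of the mitochondrial genome took 1.12% of its reads, against 0.250% to 0.542% in the other libraries. Most counts and medians of the OXPHOS genes and of the other lists that use the WT uneducated group are given with and without it.

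Of the 82 OXPHOS genes, 73 passed the filter on low levels, which asked for 5 CPM in 50% or more of the libraries of a comparison, and the number was the same in each comparison. They were 37 of 38 genes of complex I, all 8 of complex III, 12 of 18 of complex IV and 16 of 18 of complex V. The 9 genes that failed the filter are the tissue-restricted isoforms Ndufa4l2, Cox4i2, Cox6b2, Cox7a1, Cox7b2, Cox8b and Cox8c, together with Atp5l, at a mean of 2.76 CPM, and a duplicate gene model of Atp5o. Cox7b2, Cox8b, Cox8c and the duplicate had no read in any library. In CPM per kilobase, counted over all annotated exons of a gene, Cox8a was the highest of all at 745. It was ahead of Cox6a1 at 605 and Cox6b1 at 520, and all 3 are small accessory subunits of complex IV. This order depends on how much exon is annotated for a gene. In CPM, not divided by length, the mean over all libraries was 2122 for Atp5b and 461 for Cox8a. Atp5b at 501 and Atp5a1 at 406 CPM per kilobase, the catalytic beta subunit and its partner alpha of ATP synthase, led complex V, followed by Atp5d (delta) at 266. Uqcr10 at 283, Uqcrh at 144 and Uqcr11 at 138 CPM per kilobase led complex III, and Ndufa1 at 342, Ndufa2 at 330 and Ndufa13 at 233 led complex I, and these 6 are all accessory subunits. Across the 37 libraries the coefficient of variation of a tested gene had a median of 13.7% in complex I, 13.6% in complex III, 17.8% in complex IV and 14.6% in complex V. The highest value, 72.5%, belonged to Cox6a2, the muscle form of subunit VIa.

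Summed over the genes of a complex, the transcripts had their highest medians in the uneducated groups and their lowest in KO Ly49C/I+ cells. For complex V the WT uneducated libraries ranged from 6451 to 8123 CPM with a median of 7259, the WT NKG2A+ libraries from 6234 to 6880 with a median of 6462, and the WT Ly49C/I+ libraries from 6060 to 6826 with a median of 6659. The KO uneducated libraries ranged from 6222 to 7606 CPM with a median of 7200, and the 5 KO Ly49C/I+ libraries from 5297 to 6551 with a median of 6003. The ranges of every educated group and its uneducated counterpart overlapped, so that the complex V sums moved by less than the full spread between libraries. Complex I gave medians of 4919 CPM in WT uneducated, 4371 in WT NKG2A+, 4521 in WT Ly49C/I+, 4702 in KO uneducated and 4276 in KO Ly49C/I+ cells. The sums of complex III followed the same ranking of the uneducated groups over KO Ly49C/I+ cells, with 1799 CPM in WT uneducated, 1591 in WT NKG2A+, 1655 in WT Ly49C/I+, 1720 in KO uneducated and 1482 in KO Ly49C/I+ cells as medians. Complex IV had medians of 3548 CPM in WT uneducated, 3040 in WT NKG2A+, 3232 in WT Ly49C/I+, 3256 in KO uneducated and 3013 in KO Ly49C/I+ cells, but by means WT Ly49C/I+ cells, at 3275 CPM, lay above KO uneducated cells, at 3243. It reached 5542 CPM in WT uneducated library 5, against 4000 in the next highest library of that group, and without this library the group mean was 3416 ± 381 CPM (SD, n = 8) instead of 3652 ± 793 (n = 9). In bulk RNA, fewer cells rich in a transcript and less of it per cell cannot be told apart.

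**Figure D1:**
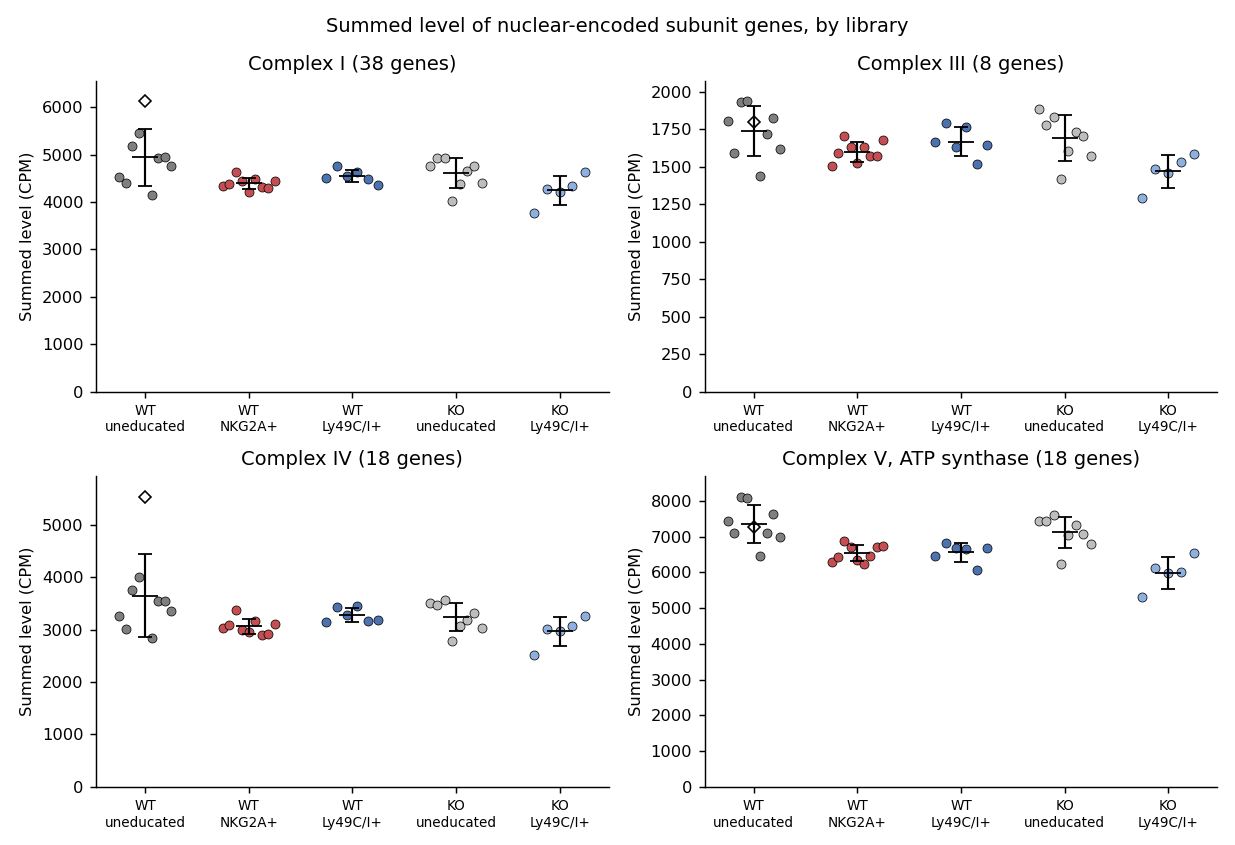
Summed CPM of the genes of complexes I, III, IV and V in each of the 37 libraries, by group. Points are libraries, the bar and error bar are the mean and SD of the group, and the open diamond marks WT uneducated library 5, which at 5542 CPM is the highest library for complex IV. The KO Ly49C/I+ group has the lowest median in each panel.

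The question put to WT NKG2A+ cells was how their transcripts differ from those of uneducated cells of the same genotype. 12 OXPHOS genes were lower in WT NKG2A+ cells and none was higher (edgeR's quasi-likelihood test, Benjamini-Hochberg adjustment over all genes tested, threshold 0.05). These 12 are 16.4% of the 73 tested, where 7.56% of all tested genes were called lower and 7.47% higher. They came from every complex: Ndufc1, Ndufc2, Ndufa12, Ndufb8 and Ndufb9 of complex I, Uqcrq and Uqcr11 of complex III, Cox6a2 and Cox5a of complex IV, and Atp5j, Atp5g1 and Atp5d of complex V. The median log2 fold change of the 73 genes was -0.19 and 65 of them were negative, beside a median of 0.01 and 48.6% negative over all genes tested. No OXPHOS gene was lower without overlap of the groups, against 0.846% of all tested genes.

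Uqcrq encodes a small subunit of complex III that contacts the cytochrome b core. It ranged from 179 to 353 CPM with a median of 261 in WT uneducated libraries and from 162 to 226 with a median of 184 in WT NKG2A+ libraries, a log2 fold change of -0.46 (SE 0.10, edgeR adjusted p = 0.00437). The WT NKG2A+ median lay just above the lowest uneducated library, and the ranges overlapped between 179 and 226 CPM. Cox5a, a nuclear subunit of complex IV that binds the regulatory thyroid hormone T2, had a median of 193 CPM in WT uneducated libraries (164 to 324) and 153 in WT NKG2A+ libraries (119 to 185), a log2 fold change of -0.46 (SE 0.12, edgeR adjusted p = 0.00909). Atp5j, which encodes coupling factor 6 in the stalk of ATP synthase, had a median of 364 CPM (280.1 to 674) against 283 (266 to 331), a log2 fold change of -0.47 (SE 0.12, edgeR adjusted p = 0.00852). For Cox5a and Atp5j the highest uneducated value was that of library 5.

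Atp5g1, Atp5g2 and Atp5g3 encode the same mature subunit c, the membrane ring that turns as protons pass, and differ in their import sequences. Atp5g1 had a median of 169.9 CPM in WT uneducated libraries (125 to 302) and 134 in WT NKG2A+ libraries (105 to 145), a log2 fold change of -0.48 (SE 0.12, edgeR adjusted p = 0.0104). Atp5g3 supplied the larger part of subunit c transcripts in every group, with a median share per kilobase between 81.5% and 83.7%, and Atp5g1 between 10.9% and 12.4%. The kilobases are those of all annotated exons. In CPM, not divided by length, the means over all libraries were 462 for Atp5g3, 150 for Atp5g1 and 26.1 for Atp5g2. Of the 50-base stretches of Atp5g2, 38.35% also occur in other genes, against 11.1% for Atp5g1 and 0 for Atp5g3, so the shares are uncertain. Ndufc1, a small membrane-arm subunit of complex I, had a median of 82.5 CPM (64.2 to 156) against 63.8 (50.7 to 73.5), a log2 fold change of -0.52 (SE 0.14, edgeR adjusted p = 0.0146). The other 7 called genes had log2 fold changes between -2.02 and -0.24, and the lowest of these was Cox6a2.

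Without WT uneducated library 5, 14 genes were called lower in WT NKG2A+ cells, among them all 12, and the median log2 fold change moved from -0.19 to -0.13. In that fit 802 of all 9295 tested genes were called lower. Without it the log2 fold change was -0.39 for Uqcrq, -0.36 for Cox5a, -0.34 for Atp5j and -1.82 for Cox6a2. With offsets for GC content and gene length in the fit, 12 genes were again called lower, 8 of them the same, and the median was -0.10. In that fit 682 of all 9339 tested genes were called lower. The OXPHOS genes are short, with a median exon length of 1587 bases against 4522 over all tested genes, and have a median GC content of 51.4% against 49.7%. The summed level of 3 erythroid markers (Hba-a1, Hbb-bs and Alas2, all detected) was 505 to 1889 CPM in WT NKG2A+ and 123 to 930.0 CPM in WT uneducated libraries, and its part in these results was not tested. The 4 markers of epithelium and trophoblast, mostly Epcam, summed to 19.7 to 80.7 CPM against 46.5 to 206 CPM. The 3 markers of endothelium did not overlap, at 122 to 201 CPM against 219 to 343 CPM, and were almost wholly Pecam1, with Cdh5 and Kdr at medians of 0. The part of these lists was likewise not tested.

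**Figure D2:**
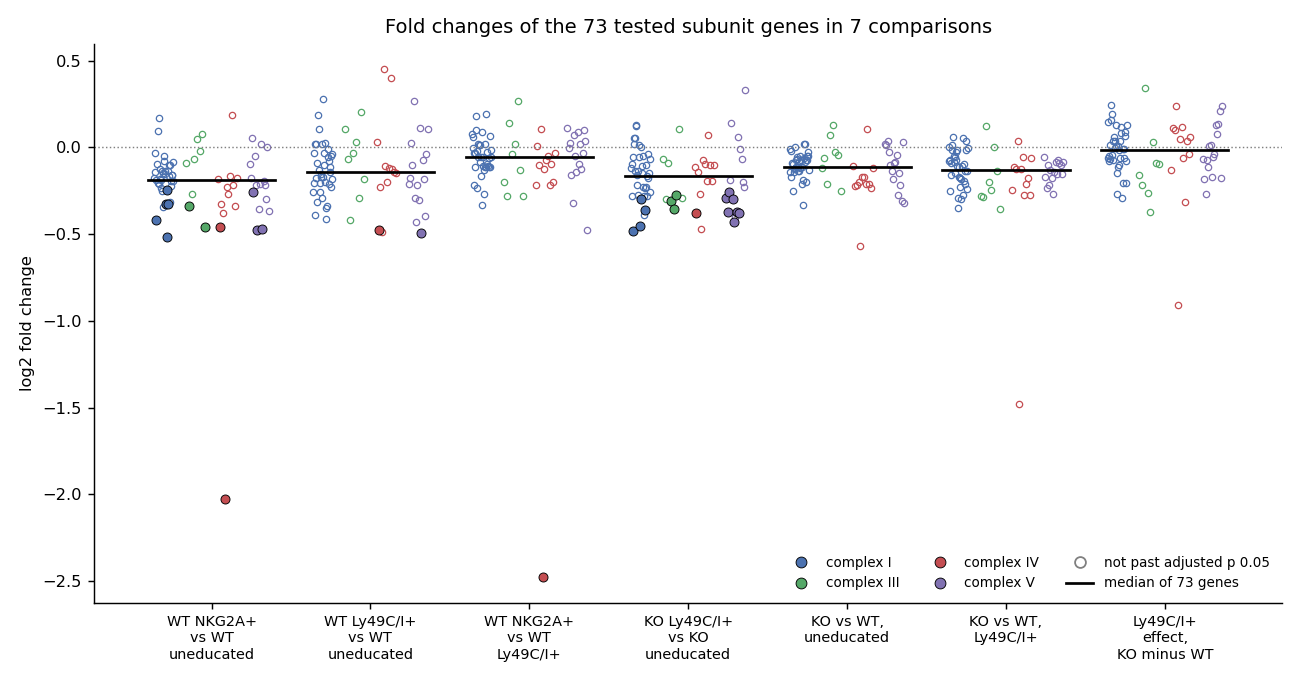
Log2 fold change of each of the 73 tested OXPHOS genes in the comparisons, by complex, with a bar at the median of the 73. Filled points passed an adjusted p of 0.05 and all of them lie below 0: 12 in WT NKG2A+ against WT uneducated cells, 2 in WT Ly49C/I+ against WT uneducated cells, 1 in WT NKG2A+ against WT Ly49C/I+ cells and 15 in KO Ly49C/I+ against KO uneducated cells.

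In KO mice the Ly49C/I+ cells were compared with uneducated cells, a comparison that shares no library with the one above. 15 OXPHOS genes were lower in KO Ly49C/I+ cells and none was higher, 20.5% of the 73 tested, where 8.99% of all tested genes were called lower and 7.34% higher (edgeR's quasi-likelihood test with Benjamini-Hochberg adjustment). Complex V held 7 of the 15 calls, out of 16 genes tested. These were Atp5b and Atp5a1 of the catalytic head, Atp5c1, Atp5f1 and Atp5j of the stalks, and Atp5g3 and Atp5g1 of the ring. Complex III held 3 of its 8 genes, namely the core proteins Uqcrc1 and Uqcrc2 and the Rieske iron-sulfur protein Uqcrfs1. Complex I held 4 of 37 genes, among them Ndufa12, Ndufb3 and Ndufb5, and complex IV held Cox5a of 12. The median log2 fold change of the 73 genes was -0.16 with 61 negative, beside 0.02 and 47.6% negative over all genes tested.

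Atp5b, the catalytic beta subunit, gave the lowest adjusted p of the OXPHOS genes in any comparison. It ranged from 2054 to 2484 CPM with a median of 2322 in the 8 KO uneducated libraries and was at 1689, 1933, 1792, 1730 and 1884 CPM in the 5 KO Ly49C/I+ libraries, a log2 fold change of -0.37 (SE 0.061, edgeR adjusted p = 0.000896). Every KO Ly49C/I+ library lay below every KO uneducated library. Its partner Atp5a1 ranged from 1194 to 1483 CPM with a median of 1377 in KO uneducated libraries and was at 1017, 1152, 1140, 1118 and 1228 CPM in KO Ly49C/I+ libraries, a log2 fold change of -0.29 (SE 0.066, edgeR adjusted p = 0.00694). The ranges of Atp5a1 overlapped through the highest KO Ly49C/I+ library alone.

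Uqcrc2, a core protein of complex III, ranged from 206 to 251 CPM with a median of 223 in KO uneducated libraries and was at 157, 177, 193, 163 and 192 CPM in KO Ly49C/I+ libraries, a log2 fold change of -0.36 (SE 0.081, edgeR adjusted p = 0.00757). The groups did not overlap. In WT mice the same gene was nearly level, with a log2 fold change of 0.03 (SE 0.098, edgeR adjusted p = 0.896) for Ly49C/I+ and 0.05 (SE 0.090, edgeR adjusted p = 0.762) for NKG2A+ cells against uneducated cells. The test of the difference between genotypes gave -0.37 (SE 0.13) for Uqcrc2, the lowest p of any OXPHOS gene in that test, with an edgeR adjusted p of 0.999.

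Ndufa12, an accessory subunit of complex I, ranged from 53.9 to 73.2 CPM with a median of 62.1 in KO uneducated libraries and was at 48.2, 42.7, 50.4, 40.9 and 48.1 CPM in KO Ly49C/I+ libraries, a log2 fold change of -0.48 (SE 0.12, edgeR adjusted p = 0.0101). Atp5g1 ranged from 146 to 196 CPM with a median of 157 in KO uneducated libraries and was at 93.6, 129.9, 119, 123 and 142 CPM in KO Ly49C/I+ libraries, a log2 fold change of -0.43 (SE 0.11, edgeR adjusted p = 0.0117). Neither gene overlapped between the groups. In all, 6 of the 73 genes were lower in every KO Ly49C/I+ library than in any KO uneducated library (Atp5b, Uqcrc2, Ndufa12, Atp5g1, Atp5f1 and Atp5g2), against 3.67% of all tested genes, and Atp5g2, which did not pass the test, is named here after its values were seen. The other called genes had log2 fold changes between -0.45 (Ndufb3) and -0.26 (Atp5c1).

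KO Ly49C/I+ library 4 carried the lowest level of Atp5b, Atp5a1, Uqcrc2 and Atp5g1 in its group. Without it 7 genes were called lower (Atp5a1, Atp5b, Atp5g1, Atp5g3, Ndufa12, Ndufb3 and Uqcrc2), where 558 of all 9378 tested genes were. With GC and length offsets 9 of the 73 genes were called, 6 lower (Atp5b, Atp5f1, Atp5g1, Cox6a1, Uqcrc1 and Uqcrc2) and 3 higher (Atp5h, Ndufa7 and Uqcrh). In that fit 690 of all 9299 tested genes were called lower and 694 higher. Of the 15 calls 5 remained, and the median moved from -0.16 to -0.06. With the replicate number as a block, 5 genes were called lower, all among the 15, with a median of -0.11. In the block fit 421 of all 9299 tested genes were called lower. With the block and the offsets, 1 gene was called lower and 1 higher. Beside these results, most of the level of 6 myeloid markers was Itgax, with medians of 529.6 CPM in KO Ly49C/I+ and 330 CPM in KO uneducated libraries. Adgre1 also had the higher median in KO Ly49C/I+ libraries, whereas Lyz2, Cd14, Csf1r (median 0) and S100a8 had lower ones. The 6 markers summed to 422 to 630 CPM in KO Ly49C/I+ and 302 to 384 CPM in KO uneducated libraries. The 4 markers of epithelium and trophoblast, mostly Epcam, did not overlap either, at 10.2 to 33.7 CPM against 35.1 to 73.2 CPM. The endothelium markers, again Pecam1, summed to 129.8 to 198 CPM against 175 to 337 CPM. The part of these lists in the result was not tested.

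**Figure D3:**
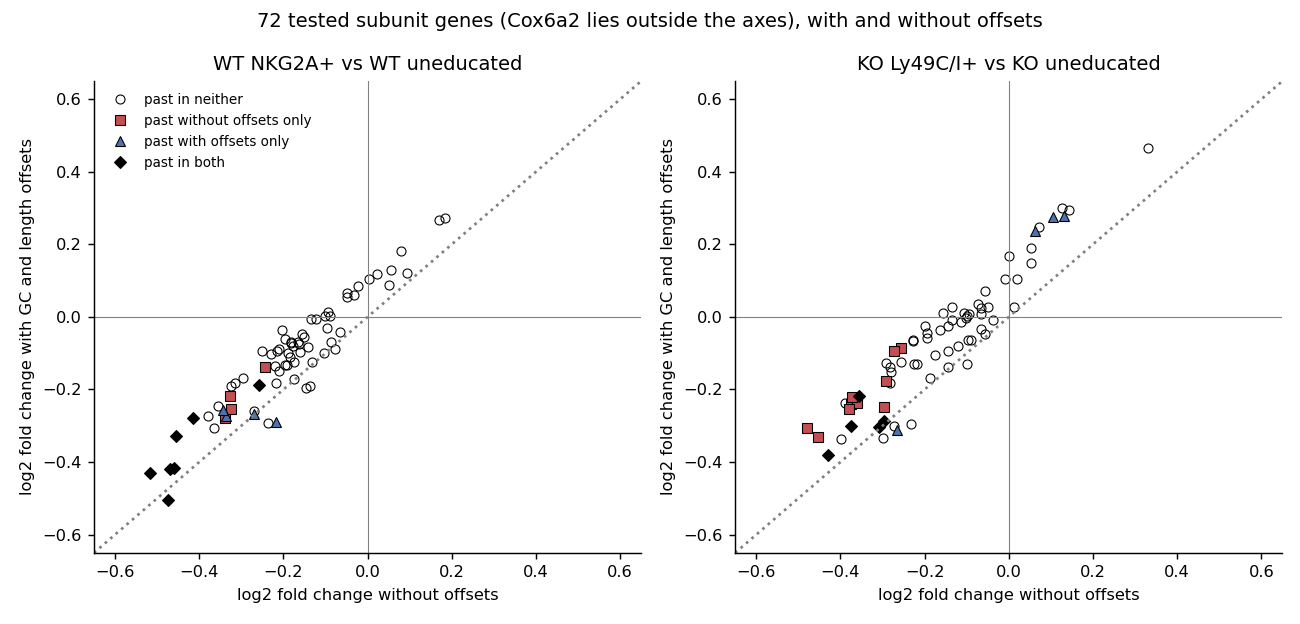
Log2 fold changes of 72 OXPHOS genes without (x axis) and with (y axis) offsets for GC content and gene length, in WT NKG2A+ against WT uneducated cells and in KO Ly49C/I+ against KO uneducated cells. Points lie mostly above the diagonal, which is the shift of the medians from -0.19 to -0.10 and from -0.16 to -0.06, and Cox6a2 is outside the axes. Diamonds passed an adjusted p of 0.05 in both fits, squares only without offsets, triangles only with offsets and open circles in neither.

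In WT mice the Ly49C/I+ cells gave 2 OXPHOS genes that were lower than in uneducated cells and none that was higher, 2.74% of the 73 tested, which is below the 4.70% of all tested genes called lower and the 4.50% called higher. These 2 genes were Cox5a and Atp5j, and they were also called in WT NKG2A+ cells, whose comparison shares the WT uneducated libraries, and in KO Ly49C/I+ cells. Cox5a had a median of 151 CPM in WT Ly49C/I+ libraries (142 to 168) beside 193 (164 to 324) in WT uneducated libraries, a log2 fold change of -0.47 (SE 0.13, edgeR adjusted p = 0.0310). Atp5j had a median of 281 CPM (264 to 303) beside 364 (280.1 to 674), a log2 fold change of -0.50 (SE 0.14, edgeR adjusted p = 0.0377). Both overlapped at the low end of the uneducated range. In KO mice Cox5a ranged from 142 to 212 CPM with a median of 179 in uneducated libraries and was at 115, 180.3, 134, 134 and 146 CPM in Ly49C/I+ libraries, a log2 fold change of -0.37 (SE 0.11, edgeR adjusted p = 0.0298). Atp5j ranged from 266 to 368 CPM with a median of 326 in KO uneducated libraries and was at 209, 251, 238, 279 and 296 CPM in KO Ly49C/I+ libraries, a log2 fold change of -0.38 (SE 0.10, edgeR adjusted p = 0.0181). KO Ly49C/I+ library 5 was the highest of its group for Cox5a, and library 8 for Atp5j.

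The WT Ly49C/I+ count rested on few libraries. It was 6 without WT uneducated library 5, where 608 of all 9361 tested genes were called lower. It was 9 without library 6, where 584 of all 9364 were. The count was 0 without WT uneducated library 3 or 4 or WT Ly49C/I+ library 2, 5 or 7. It was 1 without WT Ly49C/I+ library 1 (Ndufs1), 4 (Atp5f1) or 8 (Cox5a). Cox5a kept its call in 8 of the 15 fits without a library, and Atp5j in 7. With GC and length offsets neither gene was called, and 3 others were: Cox6a1 lower and Atp5e and Uqcrh higher. In that fit 404 of all 9292 tested genes were called lower and 419 higher. With the replicate number as a block, 6 genes were called lower, Cox5a and Atp5j among them, where 486 of all 9292 tested genes were. In the main fit the median log2 fold change was -0.14 with 56 of 73 negative, and it was -0.07 without library 5. The 3 erythroid markers summed to 591 to 1892 CPM in WT Ly49C/I+ libraries against 123 to 930.0 CPM in WT uneducated libraries. The 6 myeloid markers summed to 478 to 705 CPM against 218 to 550.0 CPM. Most of this was Itgax, with medians of 522 CPM in WT Ly49C/I+ and 304 CPM in WT uneducated libraries. Lyz2 also had the higher median in WT Ly49C/I+ libraries, at 31.8 against 18.0 CPM. Cd14, Csf1r, Adgre1 and S100a8 had lower medians there. The markers of epithelium and trophoblast, at 26.6 to 44.1 CPM against 46.5 to 206 CPM, did not overlap, and neither did those of endothelium, nearly all Pecam1, whose highest WT Ly49C/I+ library at 218.2 CPM lay just below the lowest WT uneducated library at 218.6 CPM. The part of these lists in the result was not tested.

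The bases before the annotated start of Cox5a and Atp5j are shown because these 2 genes were called lower in each educated group in the main fits. They are from the RefSeq promoter table (GRCm38.p6), are written 5′ to 3′ on the strand of the gene and end at the base before the start. Capitals mark GGGCGG read on either strand, the core letters of SP1 sites. Cox5a is at chr9:57521082-57521231 on the plus strand and Atp5j at chr16:84835626-84835775 on the minus strand. Atp5j has a second annotated start, which is not shown. Its window, chr16:84834927-84835226, holds no GGGCGG but holds CCGGAAG and AAGATGGC, motifs described below. Gene models of Cox5a and Atp5j overlap an antisense transcript, Gm26631 and the start of Gabpa, and the strand setting of the counting is not given, so reads of such partners cannot be told apart from theirs.
Cox5a: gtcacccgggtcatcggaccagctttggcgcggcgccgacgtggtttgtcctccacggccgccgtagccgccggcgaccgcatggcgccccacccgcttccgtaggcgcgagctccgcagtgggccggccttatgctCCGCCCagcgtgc
Atp5j: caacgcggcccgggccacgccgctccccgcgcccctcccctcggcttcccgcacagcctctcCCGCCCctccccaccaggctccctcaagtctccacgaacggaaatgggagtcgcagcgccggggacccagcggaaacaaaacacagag

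Promoters of the OXPHOS genes were searched on both strands for the letters of 6 motifs in windows from 250 bases before to 50 after the RefSeq start. The table matched 66 of the 82 genes with 71 windows, and the background was 20122 windows of 16502 protein-coding genes. A form of the palindromic site of NRF1, a factor known for nuclear genes of the respiratory chain, occurred in 22.5% of the windows against 6.595% of the background. AAGATGGC, bound by YY1, occurred in 14.1% against 3.11%, and CCGGAAG, bound by GABPA and other ETS factors, in 19.7% against 11.9%. GGGCGG occurred in 39.4% against 47.8%, the MEF2 site in 1.41% against 3.40%, and AGGTGTGA (T-box factors) in 0 windows against 1.17%. Matches are a description of letters and not of binding.

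Cox6a2 was the OXPHOS gene with the largest fold change. Its product replaces that of Cox6a1 in complex IV of muscle. The 9 WT NKG2A+ libraries ranged from 1.36 to 8.20 CPM with a median of 5.75, the 9 WT uneducated libraries from 0.868 to 41.1 with a median of 20.7, and the 6 WT Ly49C/I+ libraries from 14.6 to 37.0 with a median of 30.0. In KO mice the 8 uneducated libraries ranged from 3.36 to 18.1 CPM with a median of 15.9, and the 5 Ly49C/I+ libraries were at 4.22, 9.95, 12.4, 10.7 and 11.1 CPM. Every WT NKG2A+ library lay below every WT Ly49C/I+ library, every KO Ly49C/I+ library likewise lay below every WT Ly49C/I+ library, and WT uneducated libraries spread over the range of all other groups.

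Cox6a2 was lower in WT NKG2A+ than in WT Ly49C/I+ cells by a log2 fold change of -2.48 (SE 0.39, edgeR adjusted p = 0.00325) and lower than in WT uneducated cells by -2.02 (SE 0.49, edgeR adjusted p = 0.00675). It was the only OXPHOS gene called between the 2 educated WT groups, 1.37% of the 73, beside 1.42% of all tested genes called lower there and 1.31% higher, and the only one lower without overlap, beside 0.537%. Cox6a1 had a log2 fold change of 0.10 (SE 0.067, edgeR adjusted p = 0.435) in that comparison, with a median of 384 CPM in WT NKG2A+ libraries (344 to 447) and 356 in WT Ly49C/I+ libraries (325 to 405). As a share of the COX6A transcripts per kilobase, Cox6a2 had a median of 1.44% in WT NKG2A+, 4.61% in WT uneducated, 7.34% in WT Ly49C/I+, 3.53% in KO uneducated and 2.64% in KO Ly49C/I+ cells. Without WT NKG2A+ library 3, Atp5e was called as well and the count was 2.

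The coding sequences of the isoforms are shown because reads of near-identical genes could be split between them. They are read from the GENCODE M21 transcripts (GRCm38.p6), Cox6a2 whole at 291 bases and Cox6a1 as the last 291 of its 336 bases, and both genes lie on the minus strand, Cox6a2 at chr7:128205435-128206387 and Cox6a1 at chr5:115345642-115348981. Capitals mark runs of 8 or more aligned bases that are identical, of which there are 2. Over 285 aligned bases 178 are identical, or 62.5%, and the longest identical run is 12 bases.
Cox6a2: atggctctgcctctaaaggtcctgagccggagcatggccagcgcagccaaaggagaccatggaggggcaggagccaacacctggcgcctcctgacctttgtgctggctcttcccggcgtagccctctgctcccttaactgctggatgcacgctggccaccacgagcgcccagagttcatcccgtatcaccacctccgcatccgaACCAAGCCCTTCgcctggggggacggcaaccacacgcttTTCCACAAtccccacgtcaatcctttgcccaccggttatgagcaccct
Cox6a1: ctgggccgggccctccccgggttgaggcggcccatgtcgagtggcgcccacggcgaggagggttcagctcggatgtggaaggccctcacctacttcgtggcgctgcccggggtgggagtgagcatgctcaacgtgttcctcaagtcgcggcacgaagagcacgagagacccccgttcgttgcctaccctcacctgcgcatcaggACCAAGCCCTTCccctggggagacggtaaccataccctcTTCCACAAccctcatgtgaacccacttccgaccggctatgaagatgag

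Cox6a2 lies inside Itgad, a beta2 integrin alpha chain gene on the opposite strand (chr7:128154376-128223816), and 70 of its 680 exon bases, or 10.3%, are also exon of Itgad. Itgad had medians of 25.5 CPM in WT uneducated, 21.0 in WT NKG2A+, 60.6 in WT Ly49C/I+, 26.0 in KO uneducated and 55.4 in KO Ly49C/I+ cells. It was lower in WT NKG2A+ than in WT Ly49C/I+ cells, with a log2 fold change of -1.24 (SE 0.24, edgeR adjusted p = 0.00968), as Cox6a2 was. In KO mice Itgad was higher in Ly49C/I+ than in uneducated cells by a log2 fold change of 1.25 (SE 0.25, edgeR adjusted p = 0.00360), while Cox6a2 had -0.47 (SE 0.38, edgeR adjusted p = 0.440). Between the Ly49C/I+ groups Itgad differed by 0.09 (SE 0.26, edgeR adjusted p = 0.934) and Cox6a2 by -1.48 (SE 0.33, edgeR adjusted p = 0.156). The part of Itgad reads in the Cox6a2 counts was not tested.

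**Figure D4:**
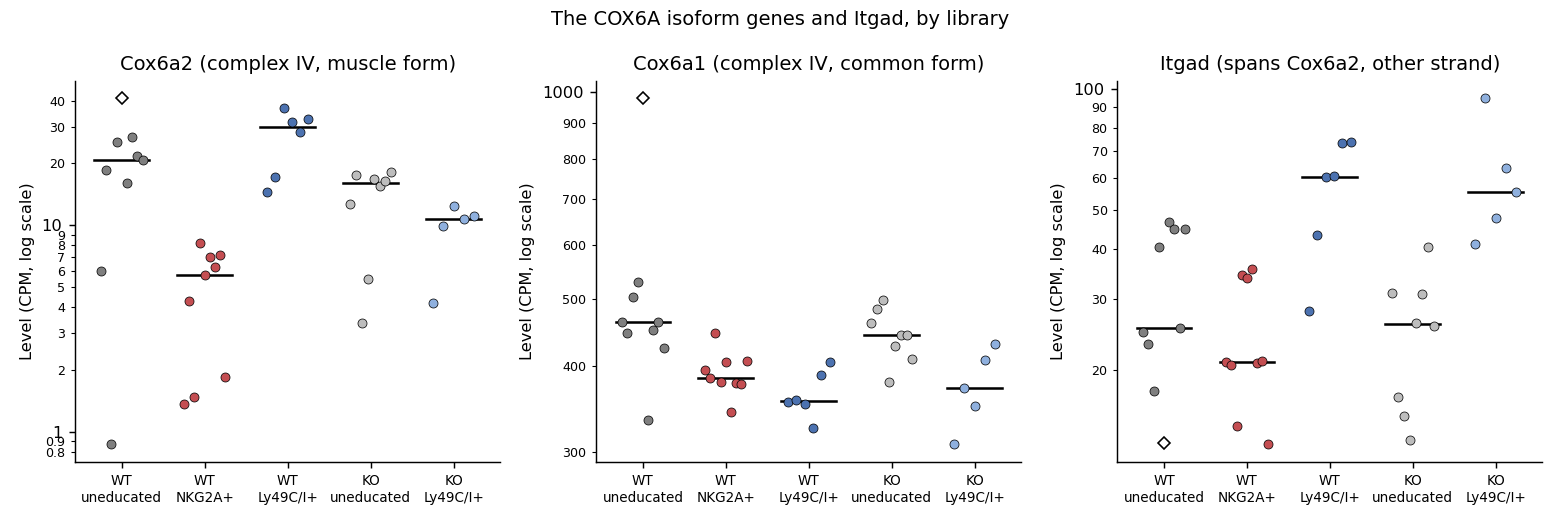
CPM of Cox6a2, Cox6a1 and Itgad in each library on log axes, by group, with a bar at the group median and an open diamond for WT uneducated library 5. Cox6a2 has medians of 5.75 CPM in WT NKG2A+ and 30.0 CPM in WT Ly49C/I+ libraries, which do not overlap, whereas the Cox6a1 groups overlap.

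The other isoform pairs of complex IV were nearly all the common form. Per kilobase, Cox4i2, the hypoxia-responsive form, reached at most 0.198% of COX4 transcripts in any library, Cox6b2, a testis form, at most 0.408% of COX6B, and Cox7a1, a muscle form, at most 1.78% of COX7A. Ndufa4l2, the hypoxia-responsive relative of Ndufa4, reached at most 0.706% in any library. Cox8b and Cox8c were not detected beside Cox8a. Cox7a2l, counted here with complex IV, was among the few genes with positive values in WT mice. Its log2 fold changes were 0.40 (SE 0.16, edgeR adjusted p = 0.133) in Ly49C/I+ and 0.18 (SE 0.14, edgeR adjusted p = 0.401) in NKG2A+ cells against uneducated cells.

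Between genotypes no OXPHOS gene was called, in uneducated cells, in Ly49C/I+ cells or in the difference of the Ly49C/I+ effect, and 0.00% of all tested genes were called in any of the 3 (edgeR's quasi-likelihood test). At an unadjusted p under 0.05 there were 5 OXPHOS genes between the uneducated groups, 16 between the Ly49C/I+ groups and 2 in the difference, each of 73 tested, where 6.66%, 10.6% and 4.37% of all tested genes had such a p. DESeq2 and edgeR's likelihood ratio test each called 1 OXPHOS gene, Cox6a2, between the Ly49C/I+ groups. The directions were mostly negative in KO cells: 63 of 73 between the uneducated groups with a median log2 fold change of -0.11, or -0.06 without WT uneducated library 5, and 65 of 73 between the Ly49C/I+ groups with a median of -0.13. With GC and length offsets 58 of 73 were negative between the uneducated groups with a median of -0.07, and 48 of 73 between the Ly49C/I+ groups with a median of -0.08. The lowest p-values between the uneducated groups belonged to Atp5mpl at -0.31 (SE 0.12, edgeR adjusted p = 0.639), Uqcrq at -0.25 (SE 0.12, adjusted p = 0.735) and Atp5j at -0.28 (SE 0.13, adjusted p = 0.735). Between the Ly49C/I+ groups they belonged to Cox6a2, Uqcrq at -0.36 (SE 0.099, edgeR adjusted p = 0.232) and Uqcr10 at -0.28 (SE 0.099, adjusted p = 0.361). Here 3 genes were lower in every KO Ly49C/I+ library than in any WT Ly49C/I+ library, beside 0.706% of all tested genes: Cox6a2, Uqcrq and Ndufs6. Uqcrq was at 164, 170.0, 184, 189.7 and 193 CPM against 198 to 274. Ndufs6, an accessory subunit of complex I that is named after its values were seen, was at 91.6 to 105 CPM against 109.6 to 127. In the difference of the Ly49C/I+ effect, Atp5c1 had a value of -0.27 (SE 0.14, edgeR adjusted p = 0.999). The median of the 73 genes in that difference was -0.02, or -0.06 without WT uneducated library 5. Its sign changed with the processing. The median was 0.015 with GC and length offsets, 0.090 with the replicate number as a block and 0.079 with both.

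Calls were shared between the comparisons with no common library. Of the 12 genes called in WT NKG2A+ cells and the 15 called in KO Ly49C/I+ cells, 4 were the same (Atp5g1, Atp5j, Cox5a and Ndufa12), or 33.3% of the first and 26.7% of the second. Over all tested genes, 355 were lower in both comparisons, or 50.3% of the 706 called lower in the first and 42.5% of the 836 in the second. All 4 OXPHOS genes were lower in the educated cells.

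Genes that work beside these subunits were taken from lists of the same kind. The mitochondrial genome encodes 13 subunits, of which 7 passed the filter. None of the 7 was called in WT NKG2A+ cells (median log2 fold change -0.25) or WT Ly49C/I+ cells (0.04) against uneducated cells. Both values rested on WT uneducated library 5: without it all 7 were positive in both comparisons, with medians of 0.21 in WT NKG2A+ cells, where none was called, and 0.50 in WT Ly49C/I+ cells, where all 7 were called higher. In KO Ly49C/I+ cells, whose comparison does not hold that library, all 7 were positive with a median of 0.39. mt-Co1, the catalytic subunit of complex IV, passed the test there, with a log2 fold change of 0.55 (SE 0.14, edgeR adjusted p = 0.0117). In KO Ly49C/I+ cells the mitochondrially encoded and the nuclear subunits thus had medians of opposite sign, 0.39 and -0.16. The 13 genes summed to 9018 CPM in WT uneducated library 5 and to 2590 CPM or less in the other libraries of that group.

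Of 11 genes of complex II and the electron carriers that the rule does not cover, 5 were lower in WT NKG2A+ cells, 2 in WT Ly49C/I+ cells and 7 in KO Ly49C/I+ cells against uneducated cells, and none was higher. Etfb, a subunit of the electron transfer flavoprotein, fell by 0.63 on the log2 scale in WT NKG2A+ cells (SE 0.11, edgeR adjusted p = 0.000389) and by 0.50 in KO Ly49C/I+ cells (SE 0.13, edgeR adjusted p = 0.0143). Gpd2, which feeds electrons from glycerol 3-phosphate, and Sdhd, a membrane anchor of succinate dehydrogenase, were called lower in all 3. Of 15 genes of mitochondrial carriers and mass, all 15 were negative in each of these comparisons, with 6, 3 and 11 called lower and medians of -0.28, -0.28 and -0.36. Slc25a4, an ADP/ATP carrier that exports the ATP made by complex V, was called in all 3, with log2 fold changes of -0.51 (SE 0.088), -0.40 (SE 0.11) and -0.44 (SE 0.13). Hspe1, the mitochondrial co-chaperonin, fell by 0.51 in WT NKG2A+ cells (SE 0.090, edgeR adjusted p = 0.000531), and Phb2, a prohibitin of the inner membrane, fell by 0.51 in KO Ly49C/I+ cells (SE 0.077, edgeR adjusted p = 0.000600).

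Of the OXPHOS assembly factors, 46 of 51 were tested in these comparisons, with 2 lower in WT NKG2A+ cells (Sdhaf4 and Uqcc2), 1 higher in WT Ly49C/I+ cells (Pet100), and 3 lower (among them Ndufaf2 and Ndufaf1) and 1 higher (Pet100) in KO Ly49C/I+ cells. Ndufaf2, needed to complete complex I, had a log2 fold change of -0.87 (SE 0.21, edgeR adjusted p = 0.00904) in KO Ly49C/I+ cells. Between WT NKG2A+ and WT Ly49C/I+ cells Uqcc2 alone was called, lower in NKG2A+ cells. None of the 15 regulators of mitochondrial gene expression was called in any of the 7 comparisons, and 1 was called higher in WT NKG2A+ cells without WT uneducated library 5. Of 77 mitochondrial ribosomal protein genes tested, 11 were lower and 1 higher in WT NKG2A+ cells, 4 were lower in WT Ly49C/I+ cells and 14 were lower in KO Ly49C/I+ cells, with medians of -0.21, -0.14 and -0.22. Without WT uneducated library 5, the mitochondrial carriers and mass had 9 genes called lower in WT NKG2A+ cells and 5 in WT Ly49C/I+ cells. Their medians were -0.29 and -0.31. Complex II and the electron carriers had 4 and 2 lower, with medians of -0.16 and -0.25 (-0.24 and -0.28 with it). The mitochondrial ribosomal proteins had 9 and 4 lower, with medians of -0.17 and -0.08. The assembly factors had 3 lower in WT NKG2A+ cells and 1 higher in WT Ly49C/I+ cells. Their medians were -0.10 and -0.08 (-0.18 and -0.13 with it).

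Calls were also made in lists outside the mitochondrion. Of 78 cytosolic ribosomal protein genes tested, 25 were lower in WT NKG2A+ cells than in uneducated cells (median log2 fold change -0.21), 18 were lower than in WT Ly49C/I+ cells (-0.19), and in KO Ly49C/I+ cells 14 were lower and 1 higher (-0.16), while in WT Ly49C/I+ cells 2 were higher and none lower (-0.04). Without WT uneducated library 5, 23 were lower and 1 higher in WT NKG2A+ cells (-0.16), and 2 were lower and 4 higher in WT Ly49C/I+ cells (0.02). Of 20 proliferation genes, 7 were lower in KO Ly49C/I+ cells, with a median of -0.41, whereas in WT NKG2A+ cells the median was 0.12 (0.11 without library 5) and Top2a was higher. The part of proliferation in the OXPHOS results was not tested.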

How the data were processed

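Bulk RNA was sequenced from 37 libraries of sorted uNK cells. The deposited values are read counts per gene, which the authors made by trimming with Trim Galore (0.5.0) and aligning with STAR (2.7.1) to GRCm38, per the labels and methods; the sources used here do not give the counting program or its strand setting. The 5 summary lines of each file (reads without a gene and the like) were left out of library sizes. Symbols and gene models were those of GENCODE M21, and 52147 of 53700 identifiers had a symbol.

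Counts were scaled by TMM and tested with edgeR (4.0.16, R 4.3.3) by the quasi-likelihood test, each fit holding only the groups of its comparison, for genes at 5 CPM or more in at least a 0.5 share of those libraries. p-values were adjusted by Benjamini-Hochberg over all genes tested with a threshold of 0.05, and an SE is the log2 fold change divided by the square root of F. Levels are CPM with TMM factors over all 37 libraries. The conditional quantile normalization of the study was not repeated; offsets from splines (5 degrees of freedom) on GC content and exon length stand in for it as an alternative. Other alternatives were DESeq2 (1.42.0), the likelihood ratio test, RLE factors, other filters, all groups in a single fit, the replicate number as a block and each library left out; leaving WT uneducated library 5 out of the difference between genotypes, the sums and the other lists was chosen after seeing the data. The fits were tested on simulated data. Depth was 13287163 to 18875033 reads on genes.

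The OXPHOS genes and the other lists were chosen with earlier results of these data known. Named OXPHOS genes are those past the threshold, at most 10 per direction and comparison, or the 3 with the lowest p where none passed, the 3 with the highest level per kilobase in each complex, and the isoform families; from other lists at most 3 past the threshold per comparison were named. Counts name the remaining called genes. Values of some genes are not reported here.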

Additional observations from a re-analysis of the deposited data

Results flagged for a closer look

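In 190 groups of libraries (38 sums and genes in 5 groups), 21 had a highest or lowest library whose gap to the next passed Dixon's 95% critical value, where chance gives about 1 in 20 groups. Of these, 13 were the highest value of WT uneducated library 5. They were the summed complex IV transcripts at 5542 CPM (next 4000 CPM), the summed mitochondrially encoded subunits at 9018 CPM (next 2590), Cox6a1 at 979 CPM (next 530), Cox8a at 861 CPM (next 516), Atp5d at 744 CPM (next 585) and Atp5j at 674 CPM (next 435). The others were Cox5a at 324 CPM (next 244), Atp5g1 at 302 CPM (next 205), Ndufa1 at 240.2 CPM (next 179), Ndufb3 at 166 CPM (next 104), Ndufc1 at 156 CPM (next 104), Ndufa12 at 108 CPM (next 80.8) and Atp5g2 at 45.7 CPM (next 30.2).

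The remaining 8 were spread over 6 libraries. In WT NKG2A+ cells, Atp5b was lowest in library 6 at 1878 CPM (next 1994), Uqcrc1 was lowest in library 4 at 422 CPM (next 477), Atp5j was highest in library 4 at 331 CPM (next 292) and Uqcr11 was highest in library 3 at 95.1 CPM (next 79.6). In WT Ly49C/I+ cells, Atp5a1 was highest in library 8 at 1246 CPM (next 1161) and Ndufa13 in library 5 at 365 CPM (next 308). In KO uneducated cells, library 4 was lowest for Atp5d at 474 CPM (next 532) and for Uqcrc1 at 414 CPM (next 518).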

How the results depend on the processing

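The 12 genes lower in WT NKG2A+ than in WT uneducated cells became 19 with DESeq2 and 21 with all 5 groups in 1 fit, and 8 without number 5 of both groups. The 2 genes called between WT Ly49C/I+ and WT uneducated cells, both lower, became 6 with the likelihood ratio test, 9 with DESeq2, 0 with no filter on low counts and 15, of which 14 lower and 1 higher, with all 5 groups in 1 fit. The 15 genes lower in KO Ly49C/I+ than in KO uneducated cells became 7 with no filter and 9, of which 6 lower and 3 higher, with GC and length offsets. The 1 gene between WT NKG2A+ and WT Ly49C/I+ cells became 4 with DESeq2, and the 0 genes between KO and WT Ly49C/I+ cells became 1 with the likelihood ratio test and 1 with DESeq2. Calls over all tested genes moved as well, given here in the same order. In WT NKG2A+ cells 706 were lower in the main fit, then 879, 880 and 720. In WT Ly49C/I+ cells 437 were lower, then 580, 661, 258 and 811. In KO Ly49C/I+ cells 836 were lower, then 529 and 690. Between WT NKG2A+ and WT Ly49C/I+ cells 132 were lower, then 257. Between the Ly49C/I+ groups 0 were lower, then 15 and 26. The fits without a filter tested 25736 and 24592 genes. The cause of these moves was not tested. Leaving out libraries gave 0 to 9 genes in WT Ly49C/I+ against WT uneducated cells and 1 to 2 between WT NKG2A+ and WT Ly49C/I+ cells. It gave 7 to 21 in KO Ly49C/I+ against KO uneducated cells. In the fits with 9, 7 and 21 genes, 584 of 9364, 558 of 9378 and 945 of 9377 tested genes were called lower.

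The numbers of WT Ly49C/I+ libraries were taken from the descriptions, which differ from the titles, and those of the other groups from the titles; the description of WT uneducated library 5 repeats number 4. The correlation of the deviations of libraries with the same number passed 0.1 in only some pairs of each comparison. A library correlated best with its own number in 6 of 6 pairs of WT Ly49C/I+ and WT uneducated cells. This held in 5 of 9 pairs of WT NKG2A+ and WT uneducated cells. It held in 4 of 6 pairs of WT NKG2A+ and WT Ly49C/I+ cells and in 3 of 5 pairs of KO cells. Each library was set against all 9 WT uneducated, 6 WT Ly49C/I+ or 8 KO uneducated libraries. A random best match would thus seldom be its own number. The matches were more frequent than that, but the check does not decide whether the numbers mark pairs. The main fits do not use the numbers. With the replicate block, 12 genes were called lower in WT NKG2A+ and 6 in WT Ly49C/I+ against WT uneducated cells. The block gave 3 between WT NKG2A+ and WT Ly49C/I+ cells and 5 in KO Ly49C/I+ against KO uneducated cells, all lower. Over all tested genes, 659, 486, 142 and 421 were called lower in these fits. With the block and GC and length offsets, the last 3 comparisons gave 5 (2 higher, 3 lower), 2 (both lower) and 2 (1 higher, 1 lower) OXPHOS genes. Over all tested genes, 418, 100 and 332 were called lower there. In that fit the median log2 fold change of the OXPHOS genes in KO Ly49C/I+ cells was -0.034. With Ndufa4 counted with complex IV, complex I summed to a mean of 4187 CPM in WT NKG2A+ and 4365 in WT Ly49C/I+ cells, and complex IV to 3266 and 3456 CPM.

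No alternative or left-out library moved the median of all genes tested by more than 0.0881 (log2). Cox6a2 was called lower in WT NKG2A+ cells in 10 of 10 alternatives and 18 of 18 fits without a library against uneducated cells, and in 9 of 9 and 15 of 15 against WT Ly49C/I+ cells. Depth limits the isoforms with few reads, such as Cox4i2 with 47 reads over all libraries.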
